A study of Capra hircus with 2 samples.

Results

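IRX3 and IRX5 are a pair of Iroquois homeobox genes, and their transcripts were followed here through the cell classes of the fetal goat (Capra hircus) ovary at the embryonic stages E85 and E125, named for days of gestation. The members are the 2 features that carry these symbols among the 27271 features of the deposited count matrices, and each symbol stands on 1 feature. The study collected female goat ovary at both stages, the period around the assembly of primordial follicles per the series title, and made 1 droplet single-cell RNA library per stage with a 10x 3' kit. No genotype, strain, treatment or number of pooled fetuses is given in the sources used here. The dissociation protocol speaks of testes, whereas both samples are labelled as ovary and female. Oocyte genes (ZP3, ZP4, FIGLA) led the germ cell-like cluster of the E125 library, and ZP3 and ZP4 led that of the E85 library.

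Iroquois proteins are transcription factors of the TALE homeobox class, which also holds the MEIS, PBX and TGIF families. IRX3 and IRX5 lie side by side in mammalian genomes and act redundantly in several developing organs. In the mouse fetal ovary they are expressed in pregranulosa cells, the somatic cells that enclose germ cells to form follicles, and IRX3 later appears in oocytes. Loss of both genes in mice disturbs the contacts between granulosa cell and oocyte and leads to the death of oocytes. Their expression in mouse pregranulosa cells depends on the R-spondin and WNT signal through beta-catenin. In the RefSeq gene table of assembly ARS1.2 the order of protein-coding genes around the pair was RPGRIP1L, FTO, IRX3, IRX5, IRX6 and MMP2.

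After filtering, 3825 of 4397 barcodes remained at E85 and 7023 of 8346 at E125, with median depths of 3102 and 3193 UMIs (unique molecular identifiers, 1 per captured molecule). The libraries shared 13 barcodes. Clusters were formed with IRX3 and IRX5 kept out of the variable genes and were named from marker lists, so each class is called X-like. Levels are given in CPM, the summed UMIs of a gene in a class scaled to a common UMI total of the class. Since each stage has a single library, no value can be set against a spread between animals. No test was run, and every 95% interval below covers counting error only. Counts from a 3' kit do not scale with gene length, but capture can differ between the genes.

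At E85 the transcripts of both genes came mainly from surface epithelium-like cells. These 265 cells, 6.93% of the library, held 56 of the 109 IRX3 UMIs and 195 of the 259 IRX5 UMIs of the kept cells. Their markers KRT8, KRT19 and KRT7 are keratins of the epithelium that covers the ovary. The name rests on those 3 keratins. UPK1B, another marker of that list, had 0 UMIs in the class at both stages, and LRRN4 had 4 at E85 and 0 at E125. The IRX5 level of the class at E85 was 86.3 CPM (74.6 to 99.3), against 24.2 CPM (17.2 to 33.1) in 251 pregranulosa-like cells. Those intervals did not overlap. IRX3 was 24.8 CPM (18.7 to 32.2) in surface epithelium-like cells and 15.5 CPM (10.1 to 22.9) in pregranulosa-like cells. The highest IRX3 level of that stage was in the 85 endothelial-like cells at 27.3 CPM (15.6 to 44.3), where IRX5 was 6.83 CPM (1.86 to 17.5). For IRX3 the 3 leading classes of E85 therefore had overlapping intervals, whereas IRX5 stood higher in surface epithelium-like cells than in any other class. Germ cell-like droplets held 6 IRX3 and 9 IRX5 UMIs (3.14 and 4.71 CPM).

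At E125 both genes were present in 5 groups of cells, and the order differed between the genes. IRX3 was highest in a cluster of 162 cells that was left unnamed (cluster 14), at 152 CPM (138 to 167). It was followed by endothelial-like cells at 113 CPM (104 to 122), pregranulosa-like cells at 93.5 CPM (86.7 to 101) and surface epithelium-like cells at 64.1 CPM (52.4 to 77.7). Over all cells, no neighbouring pair in that order had overlapping intervals. Endothelial-like cells under 20000 UMIs, however, had 124 IRX3 CPM (114 to 135). Cluster 14 cells under that depth had 105 CPM (85.1 to 129), and those intervals overlapped. IRX5 was also highest in cluster 14, at 222 CPM (205 to 239.8). Surface epithelium-like cells came next at 153 CPM (135 to 174), then pregranulosa-like cells at 121 CPM (113 to 129). Under 20000 UMIs the IRX5 intervals of cluster 14 (160 to 218) and of surface epithelium-like cells (123 to 190) overlapped. Germ cell-like droplets at 23.5 CPM (20.6 to 26.7) and endothelial-like cells at 19.5 CPM (16.0 to 23.4) had overlapping IRX5 intervals. IRX3 in germ cell-like droplets was 13.7 CPM (11.5 to 16.2). Of all UMIs of the kept cells at E125, surface epithelium-like cells held 5.04% for IRX3 and 11.4% for IRX5, cluster 14 held 20.8% and 28.8%, and pregranulosa-like cells held 34.1% and 41.7%. How far the source of the pool differed from E85 therefore depends on the class to which cluster 14 belongs. Endothelial-like cells contributed 31.7% of IRX3 UMIs and 5.19% of IRX5 UMIs.

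**Figure D1:**
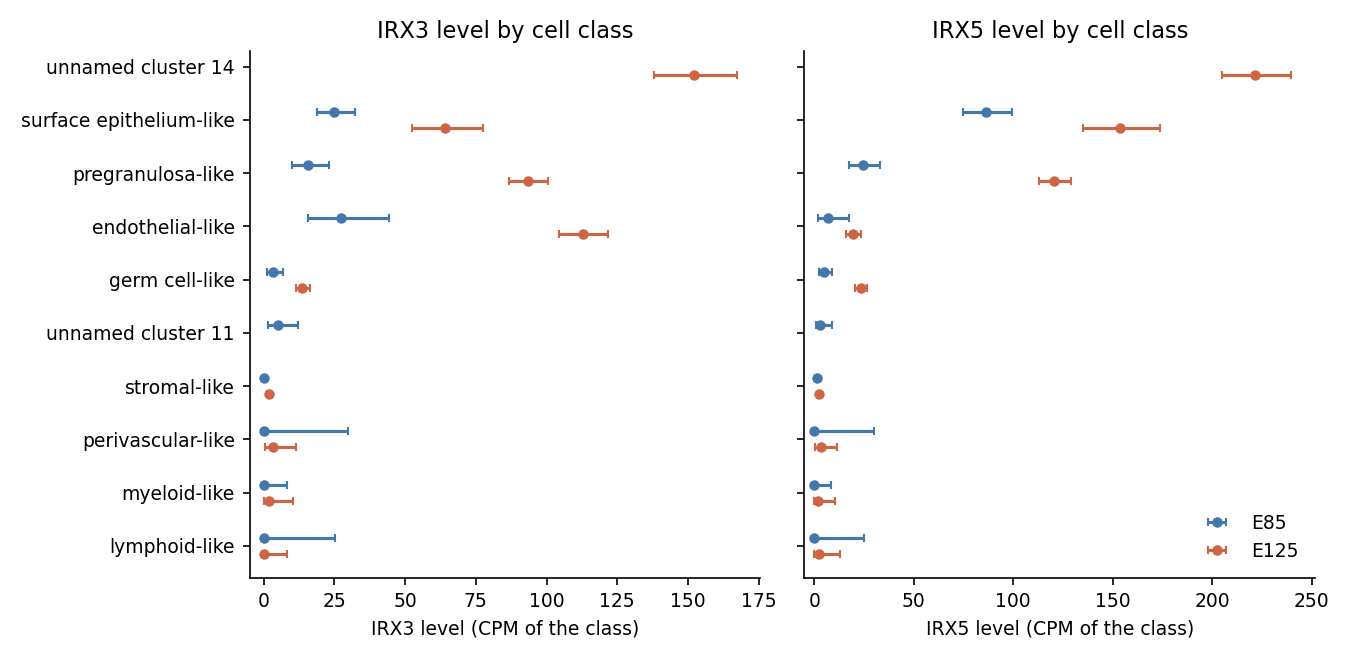
IRX3 (left) and IRX5 (right) level by cell class, in CPM of the class, at E85 (blue) and E125 (orange), with exact Poisson 95% intervals. The E125 points of cluster 14 and of the surface epithelium-like, pregranulosa-like and endothelial-like classes lie to the right of every E85 point for IRX3, while endothelial-like cells stay low for IRX5.

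Blood and stromal classes held few UMIs of the pair. Of 53 myeloid-like cells of E85, 0 held a UMI of either gene, which allows a share of up to 5.66% of cells (a limit of 3 counts), at a median depth of 7504 UMIs. The 33 perivascular-like cells of E85 also held 0, but in so few cells 3 counts would be 24.3 CPM, above the IRX3 level of pregranulosa-like cells at that stage. At E125 the 100 myeloid-like cells held 1 UMI of each gene (1.84 CPM), and the 101 lymphoid-like cells held 0 IRX3 and 1 IRX5 UMI. Stromal-like cells, the largest class, held IRX3 in 1 of 2783 cells at E85 and in 28 of 4796 at E125 (0.584%, at a median depth of 2868 UMIs), and IRX5 in 9 and 32 cells. Their E125 levels were 1.85 CPM for IRX3 and 2.42 CPM for IRX5. In pregranulosa-like cells of E125, by contrast, IRX3 was detected in 39.2% of 605 cells (35.3 to 43.2) and IRX5 in 42.5% (38.5 to 46.5), at a median depth of 7973 UMIs. With every cell thinned to 2000 UMIs, which left 556 of those cells, the shares were 15.5% and 14.2%. Stromal-like cells thinned in the same way, 3689 of them, gave 0.515% and 0.352%. In endothelial-like cells of E125 IRX3 was detected in 44.1% and IRX5 in 12.3% of 755 cells, or 21.0% and 4.11% of 657 cells after thinning. Thinned myeloid-like cells of E125 gave 0 (interval to 4.51%) and 1.25% (0.0316 to 6.77) of 80 cells. At equal depth the E125 shares of both genes in pregranulosa-like cells and of IRX3 in endothelial-like cells thus lay above those of stromal-like and myeloid-like cells. The IRX5 share of endothelial-like cells (2.73 to 5.92) lay above the stromal-like one and overlapped the myeloid-like one. At E85 the thinned IRX3 share of pregranulosa-like cells, 2.53% (0.935 to 5.43), overlapped that of myeloid-like cells (0 of 52 cells, interval to 6.85%). So did their IRX5 share, 4.64% (2.34 to 8.15), and the IRX3 share of endothelial-like cells, 8.33% (3.12 to 17.3). Surface epithelium-like cells of E85 gave 5.04% (2.71 to 8.46) for IRX3 and 10.1% (6.69 to 14.4) for IRX5, which overlapped it too. These E85 shares lay above those of stromal-like cells, 0.0474% (to 0.264) for IRX3 and 0.284% (to 0.618) for IRX5.

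Cluster 14, where both genes were highest over all cells, had markers that, summed over its cells, matched neither the surface epithelium-like nor the pregranulosa-like class. It was led by ERICH3, CPXM2, NMB, TOX3, C3, ACP5, CITED1, ALDH1A2, CFD and TGIF1. NMB, CITED1 and ALDH1A2 also led the E85 surface epithelium-like cluster. By the marker rule it would have been pregranulosa-like, since 3 of 7 usable pregranulosa markers reached the limit, but none of those markers led it. FST, the follistatin gene that marks pregranulosa cells, was 8.49 CPM there against 1410 CPM in pregranulosa-like and 17.3 CPM in surface epithelium-like cells, and AMH was 2.83 against 195 CPM. KRT8 was 236 CPM against 19.7 CPM in pregranulosa-like and 382 CPM in surface epithelium-like cells. The other keratins lay further from the surface epithelium-like class. KRT7 was 63.7 CPM against 5.32 and 809 CPM in the same order, and KRT19 was 87.4 CPM against 3.32 and 276 CPM. KITLG, a pregranulosa marker, was 135 CPM against 202 and 98.6 CPM. BMP2 was 62.3 CPM, against 12.0 CPM in pregranulosa-like and 9.86 CPM in surface epithelium-like cells. The cluster was left unnamed after its Iroquois levels had been seen, and values with it counted in either class stand beside the stage comparison. Of its 162 cells 50 held 20000 or more UMIs, with 173 IRX3 CPM and 237 IRX5 CPM, and the other 112 held 105 and 187 CPM. Germ cell markers summed to 132 and 208 CPM in those groups, against 15486 CPM in germ cell-like droplets. IRX5 was detected in 71.6% of the cluster's cells and IRX3 in 62.3%.

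Between the stages, both genes had higher levels at E125 in the 4 classes where they were measured. A ratio was called higher or lower at 2-fold. In pregranulosa-like cells IRX3 went from 25 UMIs (15.5 CPM) to 703 UMIs (93.5 CPM), a ratio of 6.02 (4.04 to 9.36). IRX5 went there from 39 UMIs to 908, a ratio of 4.98 (3.61 to 7.05). Of the 7453 genes measured in that class (50 or more summed UMIs), 14.6% were called higher and 10.6% lower, with a median log2 ratio of -0.06. IRX3 exceeded 97.4% of those genes and IRX5 96.4%. The class rests on cluster 9 at E85 and cluster 6 at E125, which shared FST, SYT6, TRIB2 and TFF2 among their leading genes. The summed pregranulosa markers were 619 CPM at E85 and 2719 CPM at E125, 10 of 10 detected at both stages. Surface epithelium markers in the class were 159 and 28.3 CPM, with UPK1B and LRRN4 at 0 in both libraries, and germ cell markers were 185 and 406 CPM. Their part in the ratio was not tested. With cluster 14 counted as pregranulosa-like, the log2 ratios were 2.82 and 2.61 in place of 2.59 and 2.32.

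Surface epithelium-like cells showed smaller ratios. IRX3 was 2.59 times higher at E125 (1.85 to 3.65), and IRX5 1.78 times (1.47 to 2.16), short of the 2-fold call. In this class 13.1% of 5849 measured genes were called higher and 10.1% lower. Neither interval overlapped that of the same gene in pregranulosa-like cells, but this difference between the classes depended on the processing. The cells sampled at E125 were shallower, with a median of 1896 UMIs against 6601, and their median mitochondrial share was 11.2% against 9.29%. With cells thinned to 2000 UMIs the IRX5 log2 ratio was 1.72 in place of 0.83, close to the 1.82 of thinned pregranulosa-like cells. Thinning leaves out cells under 2000 UMIs, and 81 of 169 cells of the class remained at E125 against 258 of 265 at E85. The thinned ratio therefore also covers a different set of E125 cells. With cluster 14 counted as surface epithelium-like, the log2 ratios were 2.28 for IRX3 and 1.19 for IRX5 in place of 1.37 and 0.83, and the IRX3 value then lay inside the pregranulosa-like interval (2.01 to 3.23). The class rests on cluster 8 at E85 and cluster 12 at E125, which shared KRT8 and RDH10 among their leading genes. Cluster 14 shared NMB, CITED1 and ALDH1A2 with cluster 8. Its levels were 152 IRX3 and 222 IRX5 CPM, against 24.8 and 86.3 CPM in the E85 class. The smaller ratios thus hold for cluster 12 as the E125 side, and which cluster is the counterpart was not tested.

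In endothelial-like cells IRX3 went from 16 UMIs in 85 cells to 655 UMIs in 755 cells, a ratio of 4.13 (2.53 to 7.27). IRX5 went from 4 to 113 UMIs, with a wide interval around its ratio of 2.85 (1.08 to 10.6). Here 19.3% of 6996 measured genes were called higher, and TMM scaling (trimmed mean of M values, from edgeR) changed the split from 19.3% higher and 7.42% lower to 15.9% and 9.69%. Germ cell-like droplets gave ratios of 4.37 (1.96 to 12.1) for IRX3 and 4.99 (2.58 to 11.04) for IRX5, where 18% of 9116 measured genes were called higher. Stromal-like cells held too few UMIs of the pair to be counted as measured.

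**Figure D2:**
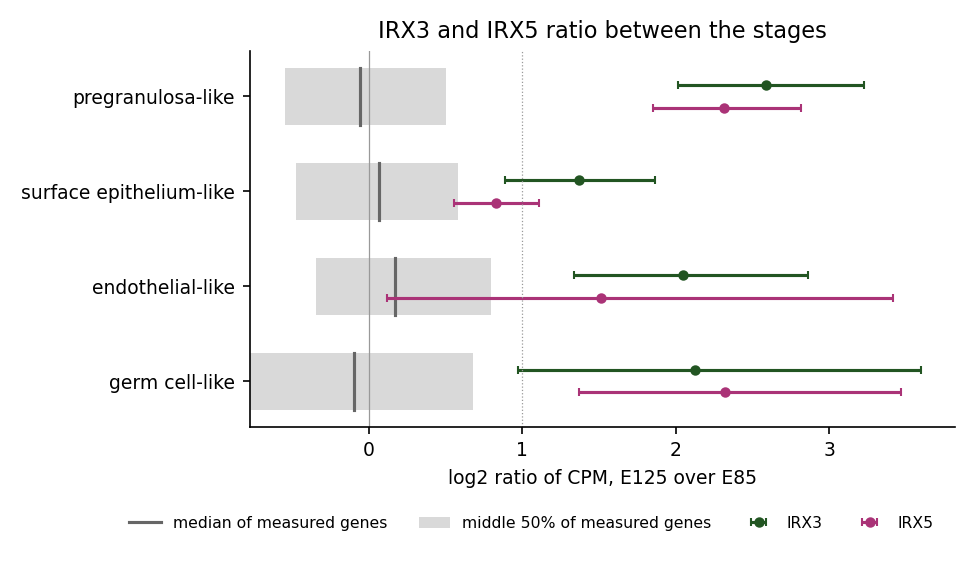
Log2 ratio of CPM, E125 over E85, for IRX3 (green) and IRX5 (magenta) in 4 classes, with exact conditional 95% intervals; grey bars span the middle 50% of all measured genes of the class and grey lines mark their median. All 8 ratios lie above the median of their class, and the dotted line marks the 2-fold call, which IRX5 in surface epithelium-like cells (0.83) does not reach.

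The balance of the genes differed between classes more than between stages. IRX3 made up 85.3% (82.6 to 87.7) of the 768 IRX3 and IRX5 UMIs of endothelial-like cells at E125 and 80.0% (56.3 to 94.3) of 20 at E85. In pregranulosa-like cells it made up 43.6% (41.2 to 46.1) of 1611 UMIs at E125 and 39.1% (27.1 to 52.1) of 64 at E85. In surface epithelium-like cells it was 29.5% (24.8 to 34.5) of 353 UMIs and 22.3% (17.3 to 28.0) of 251. Cluster 14, at 40.7% (37.7 to 43.7), overlapped the pregranulosa-like interval and lay above the surface epithelium-like one. Germ cell-like droplets of E125 were at 36.9% (32.0 to 42.0). Within each named class the intervals of the 2 stages overlapped. Endothelial-like cells were thus the class in which IRX3 prevailed, and the other 4 groups held more IRX5 than IRX3 UMIs at E125. The share compares classes and is no ratio of molecules, since the 3' ends may be captured with unequal efficiency.

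**Figure D3:**
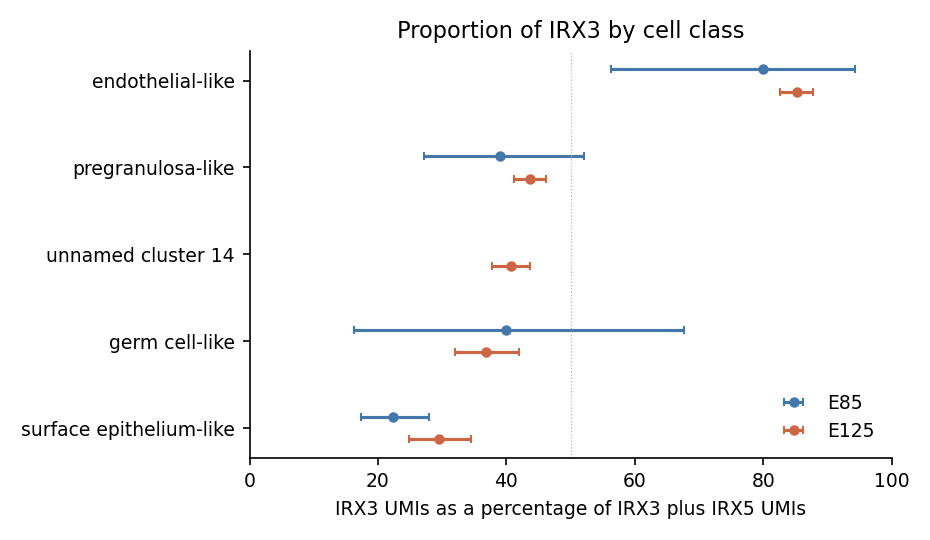
IRX3 UMIs as a percentage of IRX3 plus IRX5 UMIs in 5 groups of cells at E85 (blue) and E125 (orange), with exact binomial 95% intervals. Endothelial-like cells lie at 80.0% and 85.3%, and the other 4 groups shown lie below the dotted line at equal UMI numbers.

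With cells of all depths together, IRX5 was found more often in cells that also held IRX3 in the groups given below. Detection of either gene went with depth, and some bins of depth went the other way. In pregranulosa-like cells of E125, each gene was found in 4 of 49 cells under 2000 UMIs and in 57 of 63 cells of 20000 or more. Among the 605 pregranulosa-like cells of E125, 152 held both transcripts, 85 only IRX3, 105 only IRX5 and 263 neither. IRX5 was detected in 64.1% (57.7 to 70.2) of cells with an IRX3 UMI and in 28.5% (24.0 to 33.4) of those without. After thinning to 2000 UMIs the shares were 20.9% (12.9 to 31.0) and 12.98% (10.1 to 16.4), and their intervals overlapped. In bins of depth the difference varied. Between 2000 and 5000 UMIs the shares were 32.0% and 29.4% of 93 cells, and between 5000 and 10000 UMIs they were 54.6% and 28.8% of 267 cells, with intervals that did not overlap. Between 10000 and 20000 UMIs they were 66.7% (52.5 to 78.9) and 37.97% (27.3 to 49.6) of 133 cells. Among cells of 20000 or more UMIs 54 of 63 held both.

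In surface epithelium-like cells of E85, IRX5 was detected in 60.5% (44.4 to 75.02) of 43 cells with IRX3 and in 35.1% (28.9 to 41.8) of 222 cells without. At 2000 UMIs per cell the shares were 1 of 13 cells (7.69%, 0.195 to 36.0) and 10.2% of 245. Between 2000 and 5000 UMIs they were 0 of 3 cells and 25.7% of 74. In deeper bins they were 42.1% and 30.9% between 5000 and 10000 UMIs and 75% and 60.5% between 10000 and 20000 UMIs. Each of these bins had overlapping intervals. At E125 the same class gave 78.4% and 24.6%, and 6 of 12 cells and 24.6% of 69 after thinning. Cluster 14 gave 90.1% and 41.0%, and 41.9% and 27.9% after thinning. Endothelial-like cells of E125 gave 17.7% (13.8 to 22.3) and 8.06% (5.64 to 11.1), and 5.80% and 3.66% after thinning. In each of these thinned comparisons the intervals overlapped. Thinning left between 12 and 138 cells with IRX3 in these groups, so the intervals are wide, and in 4 of the 5 groups the share stayed higher in cells with IRX3. At E85 only 6 of 251 pregranulosa-like cells held both transcripts.

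**Figure D4:**
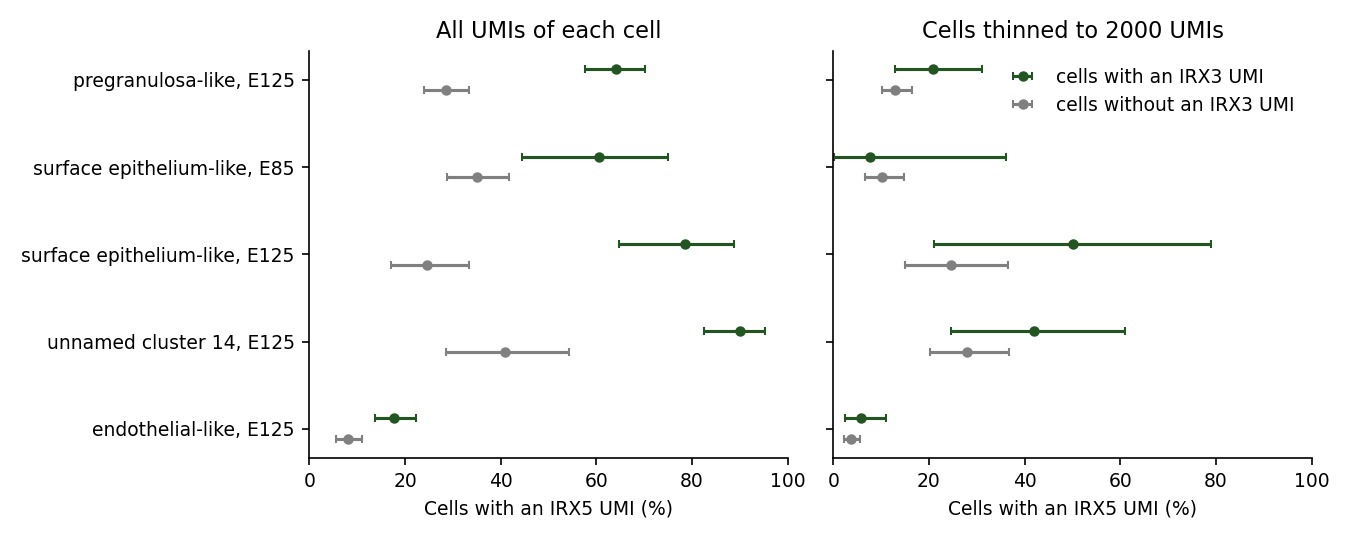
Percentage of cells with an IRX5 UMI among cells with (green) and without (grey) an IRX3 UMI, with exact binomial 95% intervals, using all UMIs (left) or 2000 UMIs per cell (right). The intervals are separate in all 5 groups on the left and overlap in all 5 on the right.

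Germ cell-like droplets of E125 carried both transcripts when they were large. Of the 71 droplets with 20000 or more UMIs (median depth 139940), IRX3 was found in 48 (67.6%, 55.5 to 78.2) and IRX5 in 59 (83.1%, 72.3 to 90.95). This amounted to 1.93 IRX3 and 3.30 IRX5 UMIs per droplet, and 43 droplets held both. In the 60 smaller droplets there were 2 IRX3 and 4 IRX5 UMIs. Their levels were 12.0 CPM (1.45 to 43.3) and 24.0 CPM (6.54 to 61.4), against 13.8 and 23.5 CPM in the large ones. Counts this low cannot show whether the levels were alike. At E85, 22 large droplets held 3 IRX3 and 4 IRX5 UMIs (1.95 and 2.60 CPM). The 83 smaller ones held 3 and 5 UMIs, or 8.12 and 13.5 CPM. Restricted to large droplets the log2 ratio between the stages was 2.82 for IRX3 and 3.18 for IRX5, whereas small droplets gave 0.56 and 0.83.

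Transcripts of the somatic marker lists were present in these droplets, and their levels are given here beside those of the pair. The large E125 droplets held 805 UMIs of the pregranulosa markers (80.8 CPM, 10 of 10 detected), 47.5 CPM being the level in stromal-like cells. Surface epithelium markers summed to 512 CPM in them, against 1466 CPM in surface epithelium-like cells and 23.4 CPM in stromal-like cells. Per 1000 pregranulosa marker UMIs there were 170.2 IRX3 UMIs (141 to 204) and 291 IRX5 UMIs (250.2 to 337) in the large droplets. Pregranulosa-like cells held 34.4 (31.8 to 37.1) and 44.4 (41.5 to 47.5) per 1000. Surface epithelium-like cells held 179.6 and 430.1 and cluster 14 held 481 and 701 on the same scale. The Iroquois transcripts of the large droplets were thus more abundant relative to these markers than in pregranulosa-like cells, and not more than in surface epithelium-like cells or cluster 14. At E85 the whole germ cell-like class held 38.2 (13.8 to 85.1) and 57.3 (25.7 to 112), with intervals that overlapped those of pregranulosa-like cells, at 25.1 and 39.2. Among all germ cell-like droplets of E125, INHA was 27.3 CPM and FST 5.04 CPM, against 241 and 1410 CPM in pregranulosa-like cells. Whether the marker UMIs came from somatic cells or from the germ cells themselves was not tested. The part of attached somatic cells or free RNA in the germ cell-like levels was not tested.

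**Figure D5:**
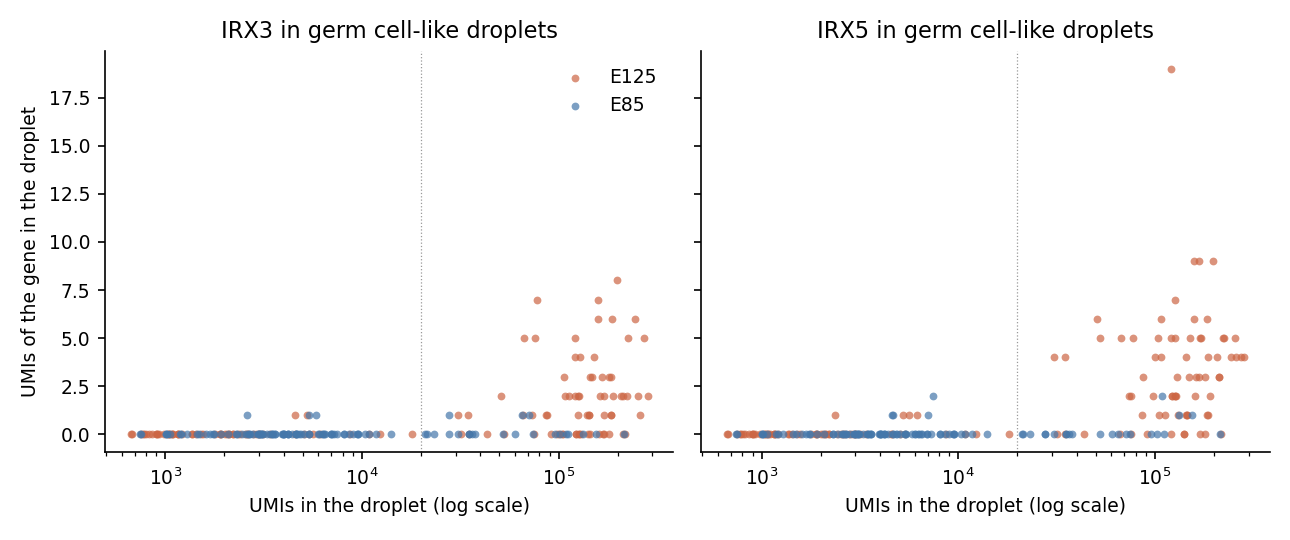
IRX3 (left) and IRX5 (right) UMIs in each germ cell-like droplet against the droplet's total UMIs on a log scale, at E85 (blue) and E125 (orange). Nearly all droplets with several UMIs of either gene are E125 droplets to the right of the dotted line at 20000 UMIs, with at most 8 IRX3 and 19 IRX5 UMIs in 1 droplet.

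Pregranulosa-like cells were not uniform. At E125 the 391 cells with a UMI of KITLG, the KIT ligand that signals to oocytes, had 102 IRX3 CPM (94.1 to 110.2) and 132 IRX5 CPM (123 to 142). The 214 cells without it had 56.3 CPM (44.5 to 70.2) and 69.3 CPM (56.1 to 84.6). Cells with EMX2, a homeobox gene of the gonadal epithelium, showed the pair at higher levels at both stages. At E125 the 55 cells with EMX2 had 133 IRX3 and 189 IRX5 CPM, against 79.8 and 97.2 CPM in 550 cells without. At E85, 37 cells with EMX2 had 33.6 CPM (17.4 to 58.7) and 72.8 CPM (47.6 to 107), against 10.4 CPM for each gene in 214 cells without, and of these the IRX3 intervals overlapped and the IRX5 intervals did not. NR0B1, which encodes the nuclear receptor DAX1, gave 120.5 and 146 CPM with and 74.3 and 103 CPM without at E125. At E85 the intervals of cells with and without NR0B1 overlapped for both genes.

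At E125 the genes parted when the cells were divided by AMH, the anti-Mullerian hormone, or by HSD17B1, a steroid dehydrogenase of granulosa cells. IRX3 was 92.3 CPM in 297 cells with AMH and 96.1 CPM in 308 without, with overlapping intervals. IRX5 was 131 CPM (122 to 141) with AMH and 97.4 CPM (85.1 to 111) without. FST divided the cells in the same way. IRX3 was 95.5 CPM (88.2 to 103) with FST and 79.7 CPM (63.0 to 99.5) without, and IRX5 128 CPM (120 to 137) and 71.5 CPM (55.8 to 90.4). For HSD17B1 it was IRX3 that differed, at 83.5 CPM (76.4 to 91.0) in 402 cells with it and 139 CPM (119.7 to 160.0) in 203 without. IRX5 was 121 and 120.4 CPM. With GJA1 as the dividing gene at E125, the intervals overlapped for both genes. At E85 those of HSD17B1 overlapped for both genes, with IRX5 at 14.5 CPM with it and 30.4 CPM without. Cells with a UMI of the dividing gene were deeper in all these comparisons. In pregranulosa-like cells of E125 with 20000 or more UMIs, 63 in number, IRX3 was 121 and IRX5 155 CPM, against 71.1 and 92.5 CPM in the 542 others. The part of depth in these within-class differences was not tested.

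Among endothelial-like cells of E125 the pair was unevenly spread as well. The main cluster of 664 cells, led by CA4, VWF and ROBO4, had 122 IRX3 CPM and 20.2 IRX5 CPM. A cluster of 61 cells led by CCL21 and FLT4, with PROX1 also among its leading genes, had 28.4 IRX3 CPM from 13 UMIs. CCL21, FLT4 and PROX1 are known markers of lymphatic endothelium. A dividing cluster of 30 cells led by ASPM and TOP2A had 95.7 IRX3 CPM. Endothelial-like cells with a UMI of VWF, the von Willebrand factor, had 126 IRX3 CPM (116 to 136), and the 159 cells without it had 46.0 CPM (33.3 to 62.0). LYVE1 divided IRX3 in the same direction, at 116 CPM with it and 73.7 CPM without, and those intervals did not overlap. KDR went the other way, at 112.5 CPM with it and 126.3 CPM without, with overlapping intervals. Cells with VWF were deeper, at a median of 5464.5 UMIs against 3633, as were those with LYVE1 or KDR. The part of depth in these differences was not tested.

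Over the 17 combinations of class and stage with 50 or more cells, IRX5 was the gene whose level followed that of IRX3 most closely among 4774 genes compared (Pearson r = 0.875 of log2 CPM with a pseudocount of 1). The next genes for IRX3 were ST6GALNAC4 (0.871), AFDN (0.866), GGT5 (0.859) and F11R (0.858), then RAPGEF4, ECE1, BCL3, ITGB5 and MYO6. AFDN and F11R encode proteins of cell junctions. For IRX5 the closest was NTN1, the gene of the guidance factor netrin-1 (0.944), followed by TOX3 (0.895) and USP5 (0.886). IRX3 ranked 4 in that order, and TMEM114, MYO6, KANK4, MEX3C, GGT5 and CITED1 completed it. NTN1 was 241 CPM in pregranulosa-like cells, 175 CPM in cluster 14 and 80.7 CPM in the surface epithelium-like class of E125, and 4.65 CPM in endothelial-like cells. AFDN was 379.8 CPM in endothelial-like cells and 105 CPM in pregranulosa-like cells of E125. GGT5 and MYO6 stood in both lists, at 87.7 and 79.8 CPM in endothelial-like and 153 and 182 CPM in pregranulosa-like cells of E125. These correlations describe points that share 2 libraries and their depth.

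Other Iroquois genes were rare outside 2 classes. IRX2 was found in endothelial-like cells of E125 with 230 UMIs (39.6 CPM, 34.7 to 45.1), against 2 UMIs at E85, and in germ cell-like droplets with 172 UMIs (16.98 CPM, 14.5 to 19.7). In germ cell-like droplets IRX2 was thus close to IRX3 (13.7 CPM), and in endothelial-like cells it stood between IRX3 and IRX5. Pregranulosa-like cells held 0 IRX2 UMIs at E85 and 1 at E125. IRX1 had 16 UMIs, IRX4 4 and IRX6 18 in all kept cells of E125. IRX6, the next gene beyond IRX5, thus stayed near 0 where its neighbours were high, with 9 UMIs in cluster 14. MKX, a related factor known from tendon, was 6.84 CPM in pregranulosa-like cells at E85 and 54.9 CPM at E125, a ratio of 8.03 (4.44 to 16.2).

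Of 5 measured genes that flank the pair, 0 were past 2-fold in either direction in pregranulosa-like cells, with a median log2 ratio of 0.13. Over all measured genes of the class 14.6% were higher and 10.6% lower, so the count for so short a list is near the background. In surface epithelium-like cells 0 of 5 were higher and 1 lower, where 13.1% and 10.1% of all measured genes were. FTO is the demethylase gene whose introns hold distant enhancers of IRX3. In pregranulosa-like cells it was 62.8 CPM at E85 and 56.7 CPM at E125 (ratio 0.902, 0.725 to 1.13). RPGRIP1L was 27.4 and 32.3 CPM, RBL2 26.1 and 28.6 CPM, and CHD9 200.2 and 190.0 CPM. MMP2, a matrix protease, was 51.0 and 85.6 CPM (1.68, 1.33 to 2.14). Other TALE homeobox genes act as partners or competitors on similar motifs. In pregranulosa-like cells 0 of 7 measured members were higher and 1 lower, again near the shares over all genes. That gene was TGIF1, at 111 and 51.9 CPM (2.13-fold lower). PBX3 was 103 and 147 CPM, PBX2 39.8 and 35.9 CPM and TGIF2 21.8 and 19.7 CPM.

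Genes of the WNT and R-spondin pathway had 7 of 19 measured members higher and 3 lower in pregranulosa-like cells. Over all measured genes of the class 14.6% were higher and 10.6% lower. The median log2 ratio of the pathway was 0.53, against -0.06 over all measured genes. ZNRF3, a membrane ubiquitin ligase that removes WNT receptors and is itself a WNT target, had the largest ratio at 8.63 (4.78 to 17.4), from 6.84 to 59.0 CPM. The WNT inhibitor APCDD1 followed at 5.23 (2.88 to 10.6), then the R-spondin receptor LGR4 at 3.37 (1.25 to 12.7) and the ligand RSPO3 at 3.15 (1.93 to 5.49). NKD2, WNT6 and AXIN1 were the others past 2-fold, named after their values were seen, and the WNT6 interval (0.986 to 7.80) included 1. The 3 lower genes, likewise, were CTNNB1 (beta-catenin) at 90.1 and 38.7 CPM, LEF1 at 22.4 and 8.91 CPM and FZD6 at 21.1 and 10.5 CPM. The most abundant members moved less: NKD1 was 156 and 153 CPM, LRP5 97.0 and 144 CPM, APC 109 and 133 CPM and TCF7L2 105 and 116 CPM.

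In the other classes the pathway gave 3 of 15 measured members higher and 2 lower in surface epithelium-like cells, and 6 of 14 higher and 0 lower in endothelial-like cells. The shares over all genes were 13.1% and 10.1% in surface epithelium-like cells, near those of the list, and 19.3% and 7.42% in endothelial-like cells. ZNRF3 was past 2-fold in both, at 5.28 (3.34 to 8.66) in surface epithelium-like cells and at 9.79 (1.72 to 391) in endothelial-like cells, where it rested on 1 UMI at E85. AXIN2, a direct WNT target, was 3.65 times higher in endothelial-like cells (1.74 to 9.17). NKD1 was 3.32-fold lower in surface epithelium-like cells, unlike in pregranulosa-like cells.

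Regulators of the gonad had 2 of 10 measured members higher and 2 lower in pregranulosa-like cells, near the background of 14.6% and 10.6%, and a median log2 ratio of -0.11. GATA6 was 8.08 times higher (3.09 to 30.0) and BMP2 2.41 times (1.17 to 5.74), whereas TBX3 was 3.23-fold and MAGED1 2.01-fold lower. WT1, the most abundant, was 229 and 252 CPM, NR2F2 155 and 121 CPM and GATA4 21.1 and 35.9 CPM. Of 8 measured genes of gap junctions and cell contacts, 1 was higher and 0 were lower, which is near that background too. This was CDH2, N-cadherin, which went from 11.8 to 87.6 CPM (7.42, 4.71 to 12.4). GJA1, the connexin of granulosa cells, was 93.9 and 161 CPM (1.71, 1.45 to 2.04), DSP 119 and 162 CPM and TJP1 113 and 122 CPM. Of 2 measured hedgehog and limb genes PTCH1, the hedgehog receptor, was 2.15-fold lower in pregranulosa-like cells and 2.93 times higher in surface epithelium-like cells. Over all measured genes, 10.6% were lower in the former class and 13.1% higher in the latter.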

How the data were processed

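The deposited values are whole-number UMI counts, in 1 matrix of genes by barcodes per stage. The submitters' processing notes name Cell Ranger 3.1, and the matrices name 6.0.0 per the file headers; no source used here gives the genome build or annotation. Symbols come from the deposited features, and FOXL2 has no feature under that symbol and is not analysed here. Total UMIs were 17748948 at E85 and 49692252 at E125.

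Barcodes with fewer than 500 genes or over 20% mitochondrial UMIs were left out (425 and 809), as were the highest Scrublet scores, 0.8% per 1000 barcodes (155 and 557), since the caller's own threshold marked 2 and 0. Logged counts, scaled to 10000 in each cell, gave 2000 variable genes without IRX3 and IRX5. Leiden clusters (scanpy 1.11.5, resolution 1) were made from 30 components and 15 neighbours of both libraries together. A cluster of 15 or more cells took the class whose markers, of those reaching 20 CPM, had the highest mean share of their top cluster level. That mean had to reach 0.25, with at least 3 markers at 0.25.

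The members, lists and markers were chosen with earlier results of these data known. A clustering with scaled genes and a naming limit of 0.3 were tried first and dropped after seeing names and class sizes, and cluster 14 was left unnamed after seeing its IRX3 and IRX5 levels. Sums have exact Poisson intervals, ratios exact conditional ones and shares Clopper-Pearson ones, all at 95%. Classes with 50 or more cells in both libraries were compared, with counts under 3 UMIs set to a floor of 3 in the background of all genes. Named genes are both members, the 10 most alike genes of each, and from each list up to 4 of highest CPM and up to 4 past 2-fold. The genes that divide pregranulosa-like and endothelial-like cells were picked from the lists and markers. Ratios and likeness were tested on simulated data. The alternatives include edgeR 4.0.16 (TMM) and DESeq2 1.42.0 scaling.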

Additional observations from a re-analysis of the deposited data

How the results depend on the processing

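Every log2 ratio of the members kept its sign under the alternatives run. In pregranulosa-like cells the ratio ran from 2.39 to 2.82 for IRX3 and from 1.82 to 2.61 for IRX5. In endothelial-like cells IRX3 ran from 1.62 to 2.16. Values outside the counting interval of the ratio were these. With cells thinned to equal depth and those under 2000 UMIs left out, IRX5 was 1.82 in pregranulosa-like and 1.72 in surface epithelium-like cells. In surface epithelium-like cells IRX5 was 1.30 with no cell filter, IRX3 and IRX5 were 1.92 and 1.13 with a stricter cell filter inside the class, and 2.28 and 1.19 with cluster 14 added. In germ cell-like droplets IRX3 was 0.56 as a mean over cells, and droplets under 20000 UMIs gave 0.56 and 0.83. Of E125 pregranulosa-like cells with IRX3, 20.9% held IRX5 after thinning and 54.4% without cells of 20000 or more UMIs. Of those without IRX3, the share was 12.98% after thinning, 16.9% with 2 or more UMIs required and 19.2% with genes scaled before the components. Of E85 surface epithelium-like cells with IRX3, 7.69% held IRX5 after thinning. Of those without, the share was 10.2% after thinning, 16.9% with 2 or more UMIs required, 22.1% with no cell filter, 19.0% with a stricter one, 15.6% at resolution 0.5 and 28.6% at resolution 2. Where no value above shows it, the cause was not tested.

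The pregranulosa-like ratio could not be had at resolution 0.5 or 2, with no or a stricter cell filter, or without doublet removal, since fewer than 50 E85 cells then took that name. The surface epithelium-like ratio could not be had at resolution 0.5 or with the stricter cell filter (2 E125 cells each), without doublet removal (21 E85 cells) or with scaled genes (no E125 cell), nor the germ cell-like ratio with the stricter filter (24 E85 droplets). Allowing IRX3 and IRX5 among the variable genes changed nothing, as neither was chosen. The settings added after seeing the data were the scaled genes, the naming limit, the treatment of cluster 14, the strict filter inside classes and the limits at 20000 UMIs. TMM scaling shifted the median log2 ratio by -0.13 in endothelial-like and 0.12 in germ cell-like cells. Without a minimum of UMIs, 8.74% of genes in pregranulosa-like cells were called higher in place of 14.6%. No paired analysis was possible because each stage has 1 library.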

Other observations

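MKX, the Iroquois relative, was also present in perivascular-like cells of E125 with 23 UMIs in 130 cells (36.7 CPM, 23.2 to 55.0), where IRX3 and IRX5 had 2 UMIs each. At E85 MKX was 14.2 CPM in surface epithelium-like cells and 3.40 CPM in stromal-like cells, and at E125 it was 29.4 CPM in cluster 14 and 10.6 CPM in stromal-like cells.

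Cluster 11, 220 cells of E85 that took no name and were led by HBAI, S100A13 and MIF, held 5 IRX3 and 3 IRX5 UMIs (5.13 and 3.08 CPM). These cells belong to no comparison above.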
